A study of Mus musculus with 8 samples.

Results

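The 8 genes described here, Ern1, Xbp1, Rtcb, Atf6, Atf6b, Eif2ak3, Mbtps1 and Mbtps2, encode the stress sensors of the endoplasmic reticulum (ER) and the proteins that process their messages. They were chosen by name, and all 8 were found among the 14126 genes of the deposited expression table. The table came from bulk RNA sequencing of pancreatic islets, the clusters of hormone-secreting cells of the pancreas, taken from 7-week-old mice of the strain NOD/ShiLtJ, which develops autoimmune diabetes. A first group of 4 libraries was labelled KO and had the genotype IRE1αβ-/-, a loss of IRE1α from beta cells, the insulin-secreting cells of the islet. A second group of 4 libraries was labelled WT and had the genotype IRE1αfl/fl, so these mice carried the floxed allele too and were not unmodified animals. For both groups the labels record tamoxifen to switch on Cre recombinase, prepared at 10 mg/ml and injected intraperitoneally 2 times per 24 h on 5 days. The promoter that drives Cre is not given in the sources used here, nor are the floxed exons. KO and WT are used throughout as these labels.

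The unfolded protein response restores balance in the ER when unfolded proteins pile up there, and beta cells lean on it because they make large amounts of proinsulin. It has 3 arms. IRE1α, the product of Ern1, is a kinase and RNase of the ER membrane that cuts an intron out of Xbp1 mRNA in the cytoplasm, and the tRNA ligase RTCB joins the exon ends. The shift of reading frame that follows yields XBP1s, a transcription factor for ER chaperones, translocation and secretion genes. ATF6 and its relative ATF6B are transcription factors held in the ER membrane, which move to the Golgi and are released by the site-1 protease (Mbtps1) and then the site-2 protease (Mbtps2). PERK, the product of Eif2ak3, phosphorylates the translation factor eIF2α, which lowers protein synthesis and favours the translation of ATF4.

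The intron that IRE1α removes is shown because it is the step at which the products of Ern1, Xbp1 and Rtcb meet. In the GENCODE M21 transcripts it lies at chr11:5524282-5524307 on the plus strand of GRCm38, in exon 4 of the 5 exons of the longest coding Xbp1 transcript. The 26 bases that are removed are in capitals, with 20 bases of exon on each side, all 5′ to 3′:

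Xbp1 unspliced: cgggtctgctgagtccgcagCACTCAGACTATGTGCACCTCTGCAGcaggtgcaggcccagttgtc

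Xbp1 spliced: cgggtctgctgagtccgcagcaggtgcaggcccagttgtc

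With the 26 bases kept, the reading frame of this transcript holds 267 codons, and with them removed it holds 371 codons. The site was found as a pair of loop letters CNGCAGC that start 26 bases apart, read on the transcript strand only. Such a pair stood in the longest coding sequence of 37 of 13243 genes in the table, or 0.279%, and among the 8 genes only in that of Xbp1. A match of letters is a description and does not show cutting by IRE1α. The table gives 1 value per gene, so the spliced and the unspliced message were not told apart here.

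Values are normalized counts per gene, rounded to whole numbers by the authors, and KO was compared with WT by limma-trend on log2(value + 1) with Benjamini-Hochberg adjustment over 14121 tested genes. Of the 8 genes, Ern1 was higher in libraries labelled KO, Atf6 and Atf6b were lower, and Xbp1, Rtcb, Eif2ak3, Mbtps1 and Mbtps2 did not pass an adjusted p of 0.05. That is 3 of 8 genes called, where 20.9% of all tested genes were called, 11.1% as higher and 9.81% as lower. The same 3 genes had no overlap between the 4 KO and the 4 WT values, which held for 25.9% of all tested genes. The median log2 fold change was -0.16 over the 8 genes and -0.0008 over all tested genes. Against totals that leave out hormone and mitochondrial genes, the split of all called genes moved to 1746 higher and 1017 lower, beside 1562 higher and 1385 lower as deposited, while the calls of the 8 genes kept their counts of 1 higher and 2 lower.

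**Figure D1:**
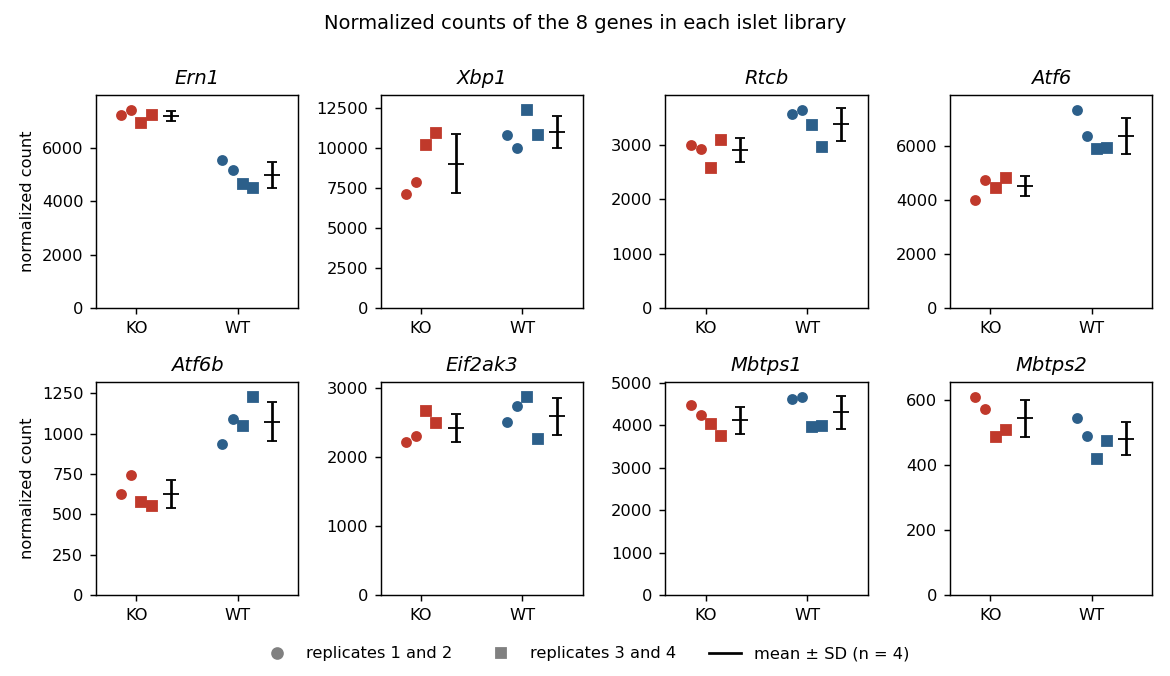
Normalized count of each of the 8 genes (vertical axes, starting at 0) in each library, with libraries labelled KO at left and WT at right of each panel; points are single libraries, circles are replicates 1 and 2, squares are replicates 3 and 4, and bars are the mean ± SD over 4 libraries. The KO and WT points are apart for Ern1, Atf6 and Atf6b and overlap for the other genes.

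Islets hold several cell types, and the RNA levels of their markers differed between the groups, so they stand beside all that follows. The summed level of 12 beta cell markers (insulin genes, Slc2a2, Ucn3 and others) lay between 2594700 and 3566440 in KO libraries and between 5471290 and 6123740 in WT libraries, with 9 of 12 lower. The 9 alpha cell markers, led by the glucagon gene, summed to between 1935730 and 2640620 in KO and to between 419718 and 1058010 in WT, with 7 of 9 higher. The 7 delta, PP and epsilon cell markers summed to between 277570 and 391767 in KO and to between 104013 and 170705 in WT, with 6 of 7 higher. Acinar markers summed to between 139338 and 413388 in KO and to between 22051 and 272406 in WT, with 1 of 12 called by limma-trend, the lower Bhlha15, where the authors' deposited table had 10 higher and 1 lower, and ductal markers to between 11963 and 28709 in KO and to between 6111 and 7192 in WT, with 2 of 7 higher by limma-trend and 5 in the authors' deposited table. Stellate cell markers summed to between 15627 and 26448 in KO and to between 9003 and 14378 in WT, with 6 of 7 higher in the authors' deposited table and 0 by limma-trend, or 3 at an unadjusted p under 0.05. Of all genes, 29.3% had an FDR under 0.05 in the authors' deposited table and 20.9% were called by limma-trend, in either direction. Macrophage markers summed to between 5653 and 9347 in KO and 4781 and 12719 in WT, lymphocyte markers to between 350 and 703 in KO and 405 and 1698 in WT, and endothelial markers to between 10231 and 16090 in KO and 9916 and 12332 in WT, with 1 called gene, Cd79a, lower among these lists. No measured marker was at 0 in any library. The part of these differences in the results on the 8 genes was not tested, and in bulk islets fewer cells of a type and less RNA per cell cannot be told apart.

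Ern1 (ENSMUSG00000020715, protein coding, chr11:106394650-106487852, minus strand, GRCm38) is the gene named by the knockout label. The 4 KO libraries, in order of replicate number, held 7223, 7390, 6922 and 7216, against 5549, 5164, 4622 and 4500 in the 4 WT libraries. Every library labelled KO was above every library labelled WT. The means were 7188 ± 195 in KO and 4959 ± 488 in WT (SD, n = 4 each), which is a log2 fold change of 0.54 ± 0.08 (SE), 95% confidence interval 0.36 to 0.73, limma-trend adjusted p = 0.00234. This is 1.45-fold higher, and 21.8% of tested genes changed by more in either direction. The spread was small in KO, with a coefficient of variation of 2.71% in KO and 9.84% in WT, where the median over all genes was 11.8% in KO and 14.2% in WT. In the authors' deposited table, where 29.3% of all genes had an FDR under 0.05, the log2 fold change of Ern1 was 0.54 with an FDR of 1.6707e-05.

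A gene total does not check the knockout label. The longest coding Ern1 transcript has 22 exons and 6946 bases, of which the last exon holds 4105 bases, or 59.1%. The largest of the other exons holds 268 bases, or 3.86%, so a total from this transcript would be weighted to the last exon. Which transcripts the islets use was not measured. The libraries are of whole islets, which hold other cells in which the labels describe no loss, and the share of Ern1 from those cells was not measured. Directions given here are therefore those of the libraries as labelled, and the loss of the exons in question was not measured.

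Atf6 (ENSMUSG00000026663, chr1:170704674-170867771, minus strand), the ER-held transcription factor that acts on chaperone genes, was lower in KO. KO replicates 1 to 4 held 4006, 4732, 4433 and 4820, against 7303, 6365, 5860 and 5911 in the WT replicates of the same numbers. The highest KO library was below the lowest WT library. The means were 4498 ± 367 in KO and 6360 ± 669 in WT (SD, n = 4 each), which is a log2 fold change of -0.50 ± 0.10 (SE), interval -0.71 to -0.28, limma-trend adjusted p = 0.00699. In the authors' deposited table it was -0.50 with an FDR of 0.000268.

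Atf6b (ENSMUSG00000015461, chr17:34647146-34655074, plus strand) encodes the relative of ATF6 that is cut in the same way and is known as a weaker activator. KO replicates 1 to 4 held 624, 746, 578 and 554, against 934, 1093, 1045 and 1225 in the WT replicates of the same numbers. All KO libraries were below all WT libraries, and the fall was the largest change among the 8 genes. The means were 625.5 ± 85.4 in KO and 1074 ± 121 in WT (SD, n = 4 each), which is a log2 fold change of -0.78 ± 0.12 (SE), interval -1.05 to -0.51, limma-trend adjusted p = 0.00249. The value of Atf6b thus fell by 41.8% and that of Atf6 fell by 29.2%.

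Eif2ak3 (ENSMUSG00000031668, chr6:70844515-70905245, plus strand), the gene of PERK, showed no call. KO replicates 1 to 4 held 2217, 2305, 2678 and 2501, against 2508, 2748, 2868 and 2259 in the WT replicates of the same numbers. The groups overlapped, and WT replicate 4 lay below 3 of the 4 KO libraries. The log2 fold change was -0.10 ± 0.10 (SE), interval -0.32 to 0.12, limma-trend adjusted p = 0.532. Eif2ak3 shares 485 exon bases with Gm43292 on the opposite strand, and without known strandedness reads there cannot be told apart. Of the 3 kinds of sensor, then, Ern1 was higher, both ATF6 genes were lower, and for Eif2ak3 a change beyond this interval was not seen.

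**Figure D2:**
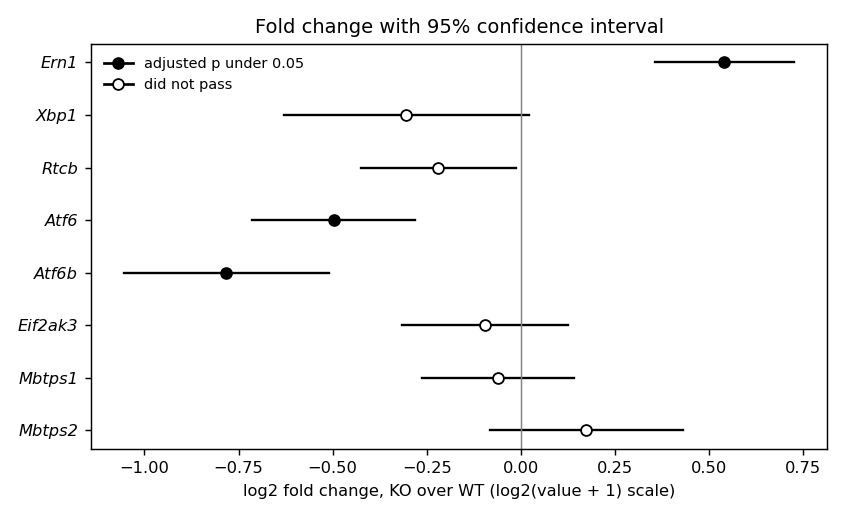
Log2 fold change of KO over WT for each of the 8 genes (horizontal axis, log2(value + 1) scale) with its 95% confidence interval as a line; filled points passed an adjusted p of 0.05 and open points did not. Ern1 lies to the right of 0 at 0.54, Atf6 at -0.50 and Atf6b at -0.78 lie to the left, and the other intervals span 0, except that of Rtcb, which ends at -0.01.

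Xbp1 (ENSMUSG00000020484, chr11:5520659-5525893, plus strand) encodes the message that IRE1α splices. KO replicates 1 to 4 held 7104, 7858, 10170 and 10957, against 10805, 10026, 12356 and 10795 in the WT replicates of the same numbers. KO replicates 1 and 2 were below all WT libraries, while KO replicates 3 and 4 lay within the WT range. The means were 9022 ± 1834 in KO and 10996 ± 978 in WT (SD, n = 4 each), which is a log2 fold change of -0.30 ± 0.14 (SE), interval -0.63 to 0.02, limma-trend adjusted p = 0.168. Its coefficient of variation of 20.3% in KO was the highest among the 8 genes, against 8.89% in WT. In the authors' deposited table Xbp1 had a log2 fold change of -0.30 and an FDR of 0.101.

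Whether Xbp1 passed the threshold depended on which libraries were compared and on the terms of the fit. Replicates 3 and 4 differed from replicates 1 and 2 in both genotypes, and 15.4% of all tested genes were called between these sets. A list of 12 immediate early and dissociation genes, which respond to handling of tissue, included the heat shock genes Hspa1a and Hspa1b. Its summed level was 20528 and 16194 in KO replicates 1 and 2 and 141784 and 146009 in KO replicates 3 and 4. In WT it was 11808 and 6590 in replicates 1 and 2 and 266289 and 297868 in replicates 3 and 4. The labels give no batch, so what the sets are is not known, and the part of these genes in the result was not tested. No label defines the sets, which were seen in the values of these same libraries. Counts and p-values between or within the sets are therefore a description.

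Between the sets, Xbp1 was higher in replicates 3 and 4 by 0.32 ± 0.09 (SE) on the log2 scale, limma-trend adjusted p = 0.0437, and none of the other 7 genes passed. Within replicates 1 and 2, Xbp1 fell to 7104 and 7858 in KO, against 10805 and 10026 in WT, a log2 fold change of -0.48 with a limma-trend adjusted p of 0.0160. Within replicates 3 and 4 the log2 fold change was -0.13 and the limma-trend adjusted p 0.409. With the set as a term in the fit the log2 fold change of Xbp1 stayed -0.30 and the limma-trend adjusted p was 0.0333. The difference between the 2 effects was 0.35 ± 0.14 (SE), with a limma-trend adjusted p of 0.241, so a different response in the sets was not shown.

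For the 3 called genes the direction was the same in each set, which the lack of overlap between the groups fixed in advance. Ern1 was higher in KO by 0.45 in replicates 1 and 2 and by 0.63 in replicates 3 and 4 on the log2 scale. Atf6 fell by 0.65 in replicates 1 and 2 and fell by 0.35 in replicates 3 and 4. Atf6b fell by 0.57 in replicates 1 and 2 and fell by 0.998 in replicates 3 and 4. All 6 values passed an adjusted p of 0.05 in limma-trend, where 23.7% of all tested genes passed in replicates 1 and 2 and 23% in replicates 3 and 4. These fits reuse the libraries that gave the calls, so they are a description and no separate support. None of the 3 differences between sets passed, with adjusted p of 0.405 for Ern1, 0.325 for Atf6 and 0.261 for Atf6b.

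Rtcb (ENSMUSG00000001783, chr10:85938637-85957823, minus strand) encodes the ligase that joins the Xbp1 exons. KO replicates 1 to 4 held 3000, 2929, 2574 and 3083, against 3559, 3629, 3365 and 2951 in the WT replicates of the same numbers. WT replicate 4 was below 2 of the KO libraries, and the other WT libraries were above all KO libraries. The log2 fold change was -0.22 ± 0.09 (SE), interval -0.43 to -0.01, limma-trend adjusted p = 0.121. Without WT replicate 4 it was -0.28 with a limma-trend adjusted p of 0.0431. Rtcb was not called in any other fit tried, with a limma-trend adjusted p up to 0.359.

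The proteases that release ATF6 showed no call. Mbtps1 (ENSMUSG00000031835, chr8:119508156-119558735, minus strand) had 4489, 4247, 4021 and 3740 in the 4 KO libraries, against 4619, 4659, 3964 and 3978 in the 4 WT libraries. The groups overlapped almost fully, and the log2 fold change was -0.06 ± 0.09 (SE), interval -0.26 to 0.14, limma-trend adjusted p = 0.679. Mbtps2 (ENSMUSG00000046873, chrX:157535371-157598715, minus strand) had 607, 570, 484 and 508 in the 4 KO libraries, against 544, 488, 418 and 473 in the 4 WT libraries. Each KO library was above the WT library of the same number, but the groups overlapped, and the log2 fold change was 0.17 ± 0.11 (SE), interval -0.08 to 0.43, limma-trend adjusted p = 0.315. Mbtps2 shares 2867 exon bases, or 28.4% of its merged exons, with Yy2 on the same strand, so reads there cannot be assigned with certainty. Yy2 itself had 4, 47, 40 and 58 in KO and 9, 22, 14 and 39 in WT, well under the values of Mbtps2.

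Divided by the length of the longest coding transcript, the levels of the 8 genes spanned more than 10-fold within each group. Xbp1 was highest, at 4238 ± 862 normalized counts per kb in KO and 5165 ± 459 in WT (SD, n = 4 each). Rtcb followed at 1442 ± 112 per kb in KO and 1680 ± 152 in WT, and the levels of Xbp1 and Rtcb did not overlap in any library. Mbtps2 was lowest, at 113 ± 12 per kb in KO and 100.2 ± 10.8 in WT, with Atf6b next at 270.2 ± 36.9 in KO and 464.0 ± 52.1 in WT.

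The middle of the order differed between the groups. In KO libraries Ern1 came next after Rtcb, at 1035 ± 28 per kb, followed by Mbtps1 at 951 ± 74, Atf6 at 621 ± 51 and Eif2ak3 at 537 ± 46. In WT libraries Mbtps1 came next after Rtcb, at 993 ± 89 per kb, followed by Atf6 at 878 ± 92, Ern1 at 714 ± 70 and Eif2ak3 at 575 ± 60. Ern1 was thus above Atf6 in all 4 KO libraries and below Atf6 in all 4 WT libraries. Neighbours whose ranges of values overlapped were Ern1 with Mbtps1 and Atf6 with Eif2ak3 in KO, and Mbtps1 with Atf6 and Atf6b with Eif2ak3 in WT. Which transcripts the islets use is not in the table, and with all exons of a gene merged, Mbtps1 fell to 391 per kb in KO and 408 in WT, below Atf6.

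**Figure D3:**
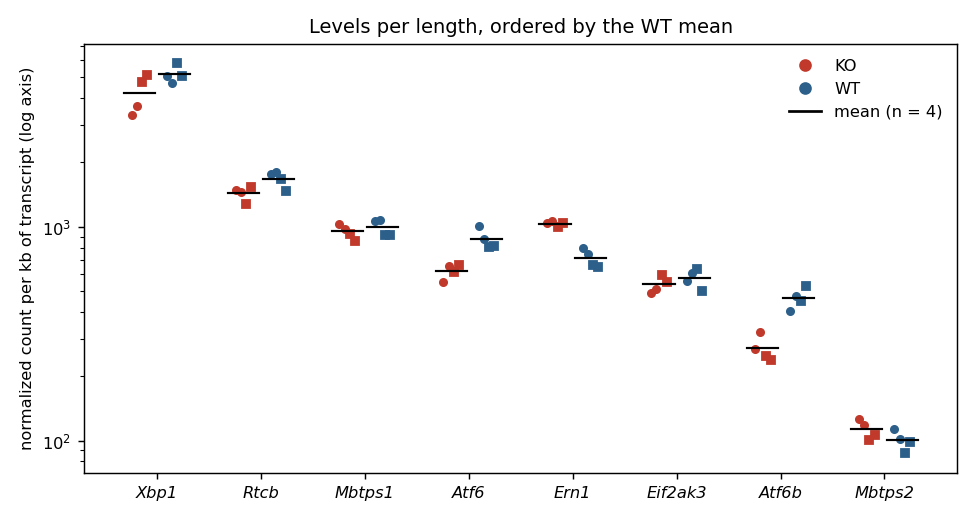
Normalized count per kb of the longest coding transcript (vertical axis, logarithmic) for the 8 genes, ordered by the WT mean, with KO libraries left of WT libraries for each gene; circles are replicates 1 and 2, squares are replicates 3 and 4, and lines are means over 4 libraries. Ern1 lies at 1035 per kb in KO and 714 in WT, and Atf6 at 621 in KO and 878 in WT, so their order is turned round between the groups.

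Ratios of these genes within a library do not depend on the scaling between libraries. The ratio of Xbp1 to Ern1 was 0.984, 1.06, 1.47 and 1.52 in the 4 KO libraries, against 1.95, 1.94, 2.67 and 2.40 in the 4 WT libraries. All KO ratios were below all WT ratios. The log2 ratio differed by -0.84 ± 0.20 (SE) in an exact two-sided permutation test over 70 splits, p = 0.0286, the smallest that 4 against 4 libraries allow, adjusted over 4 ratios 0.0381. The difference was -0.93 in replicates 1 and 2 and -0.76 in replicates 3 and 4, where the lack of overlap fixed the sign in advance. With libraries swapped only within the 4 same-numbered pairs, the exact permutation p was 0.125, the smallest that 16 arrangements allow, so this test could not pass the threshold. A ratio shows that the 2 messages changed unequally and not which of them moved.

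The ratio of Eif2ak3 to Ern1 was 0.307, 0.312, 0.387 and 0.347 in the 4 KO libraries, against 0.452, 0.532, 0.621 and 0.502 in the 4 WT libraries, with no overlap. It differed by -0.64 ± 0.12 (SE) on the log2 scale, exact permutation p = 0.0286, adjusted 0.0381, or 0.125 within pairs. This ratio and that of Xbp1 share Ern1, so they are not separate results. By gene, the log2 fold change was 0.54 for Ern1, which was called, and -0.10 for Eif2ak3, which was not. The ratio of Mbtps2 to Mbtps1 was 0.135, 0.134, 0.1204 and 0.136 in KO, against 0.118, 0.105, 0.105 and 0.119 in WT, higher in every KO library by a narrow margin. It differed by 0.23 ± 0.06 (SE) on the log2 scale, exact permutation p = 0.0286, adjusted 0.0381, or 0.125 within pairs. By gene, neither was called, with log2 fold changes of 0.17 for Mbtps2 and -0.06 for Mbtps1. Mbtps2 also shares 28.4% of its merged exon bases with Yy2 on the same strand. The ratio of Atf6b to Atf6 was 0.156, 0.158, 0.130 and 0.115 in KO, against 0.128, 0.172, 0.178 and 0.207 in WT. These overlapped, with a log2 difference of -0.29 ± 0.18 (SE), exact permutation p = 0.171, so a deeper fall of Atf6b than of Atf6 was not shown. Within replicates 1 and 2 alone this difference was 0.08, and within replicates 3 and 4 alone -0.65.

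**Figure D4:**
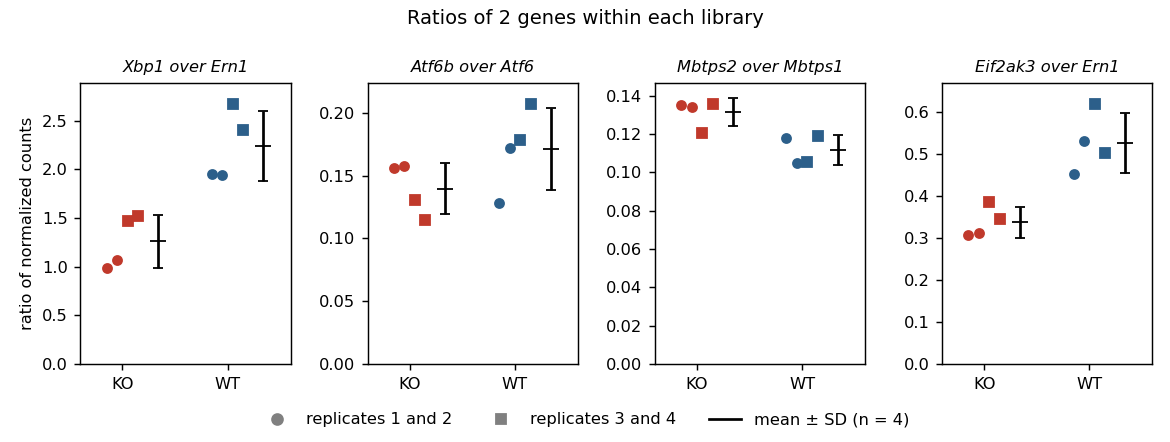
Ratio of 2 genes within each library (vertical axes, ratio of normalized counts, starting at 0), with KO at left and WT at right; circles are replicates 1 and 2, squares are replicates 3 and 4, and bars are the mean ± SD over 4 libraries. Xbp1 over Ern1 averaged 1.26 in KO and 2.24 in WT without overlap, and Atf6b over Atf6 overlapped.

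The genes most like Ern1 across the 8 libraries were found by the root mean square difference between log2 profiles, each centred on its own mean, over 11826 genes. The closest was Cpb2, at 0.056, where the median over these genes was 0.367. Cpb2 had 474, 514, 456 and 530 in KO, against 365, 357, 307 and 319 in WT. Other close profiles were those of 4933431E20Rik, Tmem63c and Lrrk2, at up to 0.082. For Xbp1 the closest were Anapc15 at 0.062, Gtf2b, Zfp869, Vamp3 and Armcx1, the last at 0.079, where the median was 0.325. Gtf2b had 970, 1229, 1565 and 1615 in KO, against 1518, 1389, 1794 and 1541 in WT, the same step up between the sets as Xbp1. None of the 5 genes closest to Xbp1 passed an adjusted p of 0.05 between KO and WT in limma-trend. They were picked for likeness to Xbp1, which did not pass either, so this and the shared step follow from the choice. Among the 8 genes themselves the closest pairs were Rtcb with Mbtps1 at 0.136 and Mbtps1 with Mbtps2 at 0.142.

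Upstream DNA of 6 of the 8 genes, all but Rtcb and Atf6, was matched in a RefSeq promoter table of GRCm38.p6. The 250 bases before each start were searched on both strands for 4 motifs. They were the ER stress element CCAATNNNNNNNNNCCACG, held by 0.113% of 32851 promoters, the ER stress element II (ATTGG, 1 free base, CCACG), held by 0.0304%, the XBP1 and ATF6 core TGACGTG, held by 1.65%, and the ATF4 element core TTGCATC, held by 2.19%. None of the 6 windows held any of these letters, which says nothing about more distant sites.

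Other genes of the pathway were followed in 8 lists by role, which share some genes. Together they held 160 measured genes outside the 8, of which 18 were higher in KO, 37 were lower and 105 did not pass. That is 34.4% called, where 20.9% of all tested genes were called, with a median log2 fold change of -0.15. The lists were chosen with earlier results of these data known, so these counts are a description.

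**Figure D5:**
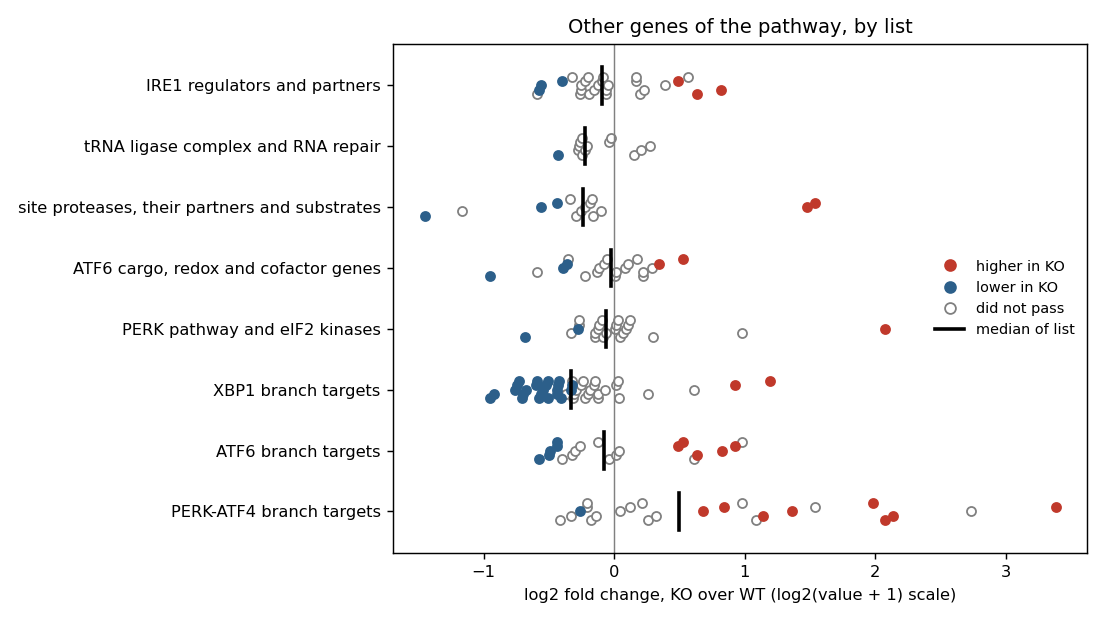
Log2 fold change of KO over WT (horizontal axis, log2(value + 1) scale) of each measured gene in the 8 pathway lists; filled points passed an adjusted p of 0.05, red for higher and blue for lower in KO, open points did not pass, and black lines are list medians. The XBP1 branch targets have 23 of 45 genes called lower, and the PERK-ATF4 branch targets have 8 of 24 called higher. Over all tested genes, 9.81% were called lower and 11.1% higher.

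Around IRE1α, 3 of 27 regulators and partners were higher and 3 were lower, with a median of -0.09. Over all tested genes, 11.1% were called higher and 9.81% lower. Itpr1, an ER calcium channel, was higher by 0.82 ± 0.20, Sel1l, the ER degradation adaptor through which IRE1α is turned over, by 0.63 ± 0.11, and Hspa5, the chaperone BiP that holds the sensors inactive, by 0.49 ± 0.13 (log2, SE). Selenos, an ER degradation component, fell by 0.58 ± 0.14, and the ufmylation genes Ufl1 and Ddrgk1 fell by 0.56 ± 0.09 and by 0.40 ± 0.12. Their limma-trend adjusted p ranged up to 0.0425. Of the tRNA ligase complex and other RNA repair genes, 1 of 13 was lower and none was higher by limma-trend, by its unadjusted p or in the authors' deposited table. The lower gene was Clp1, an RNA kinase, which fell by 0.43 ± 0.11, and this list had 0 calls without KO replicate 3 or without WT replicate 3. Ddx1 at -0.04 and 2700060E02Rik, the gene of the ligase partner RTRAF, at 0.15 did not pass.

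Among 14 partners and substrates of the site proteases, 2 were higher and 3 were lower, with a median of -0.24. Over all tested genes, 11.1% were called higher and 9.81% lower. The sterol-responsive transcription factor Srebf1, which both proteases release, averaged 1406 ± 293 in KO and 3816 ± 555 in WT (SD, n = 4 each). Its log2 fold change was -1.45 ± 0.16 (SE), limma-trend adjusted p = 0.000547. Srebf2 fell by 0.56 ± 0.14 and Atraid by 0.44 ± 0.11. The ATF6-like factors Creb3l3, at 44.5 ± 20.6 in KO and 14 ± 4.16 in WT, and Creb3l4, at 33.2 ± 11.4 in KO and 11.5 ± 4.8 in WT, were higher at low values, and neither was called without KO replicate 2, 3 or 4 or without WT replicate 1 or 2.

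In the list of ATF6 cargo, redox and cofactor genes, 2 of 20 were higher and 3 were lower, with a median of -0.02. For this and the PERK list, the shares over all tested genes were 11.1% higher and 9.81% lower. Pdia4, a disulfide isomerase, was higher by 0.53 ± 0.12 and Tbp, a general transcription factor, by 0.34 ± 0.09. Wfs1, which encodes wolframin and promotes the degradation of ATF6, fell by 0.95 ± 0.12, Gtf2i by 0.39 ± 0.06 and Nfyc by 0.36 ± 0.09. In the PERK list 1 of 23 was higher and 2 were lower, with a median of -0.06. Trib3, a pseudokinase induced by ATF4 signalling, averaged 474.5 ± 141.6 in KO and 124.5 ± 75.8 in WT (SD, n = 4 each). The adaptor gene Nck2 fell by 0.68 ± 0.10 and Eif2b4, a subunit of the exchange factor for eIF2, by 0.28 ± 0.08.

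The transcriptional targets were counted in 3 of these lists, which share genes such as Derl3, and the lists were not tested against each other. Of 45 XBP1 branch targets, 23 were lower in KO and 2 were higher, with a median of -0.33. Over all tested genes, 9.81% were called lower and 11.1% higher. Spcs3, a subunit of signal peptidase, averaged 7716 ± 1088 in KO and 14721 ± 2760 in WT, and Wfs1 2126 ± 296 in KO and 4117 ± 583 in WT (SD, n = 4 each). Among the others that fell were Sec61b, a translocon subunit, Spcs2 of signal peptidase, Derl2 of ER degradation and the cargo receptor Lman1, named after their values were seen. The KDEL receptor gene Kdelr3, at 566.8 ± 67.5 in KO and 248.0 ± 38.3 in WT, and Derl3, at 786.2 ± 163.1 in KO and 414.2 ± 96.6 in WT, were higher. Within replicates 1 and 2 alone 26 targets were lower, where 11.1% of all tested genes were, and within replicates 3 and 4 alone 14 were, where 11.5% of all tested genes were.

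Of 20 ATF6 branch targets, 5 were higher and 5 were lower, with a median of -0.08. Over all tested genes, 11.1% were called higher and 9.81% lower. The ER chaperone Hsp90b1 averaged 86150 ± 8410 in KO and 48819 ± 6445 in WT (SD, n = 4 each), which is a log2 fold change of 0.82 ± 0.13 (SE), limma-trend adjusted p = 0.00249. Derl3, Sel1l, Pdia4 and Hspa5 were the others that were higher. Selenos, Hspa13, Sdf2l1, Hyou1 and Edem1 were lower, at log2 fold changes between -0.58 and -0.44. The lower count moved between 1 and 6 when a library was left out, with 1 without WT replicate 1.

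Of 24 PERK-ATF4 branch targets, 8 were higher and 1, Sesn3, was lower, with a median of 0.50. Over all tested genes, 11.1% were called higher and 9.81% lower. The amino acid transporter gene Slc7a3 averaged 171.2 ± 62.8 in KO and 17 ± 10.8 in WT (SD, n = 4 each), which is a log2 fold change of 3.39 ± 0.45 (SE), limma-trend adjusted p = 0.00134. Slc7a11, the cystine transporter gene, was higher by 2.14 ± 0.46, Trib3 by 2.08 ± 0.43 and Stc2, a secreted glycoprotein gene, by 1.98 ± 0.20. The authors' deposited table had 14 of these 24 targets higher and 2 lower, where 29.3% of all genes had an FDR under 0.05 in either direction. Within replicates 1 and 2 alone 5 were lower by limma-trend, where 11.1% of all tested genes were lower. The summed level of this list was 34100, 33968, 72639 and 71099 in the 4 KO libraries by number and 32200, 31780, 78989 and 68654 in the 4 WT libraries. This sum followed the sets in place of the labels. It is weighted to genes with high values, such as Atf3, which is also in the list of immediate early and dissociation genes. Atf3 had 256, 105, 18716 and 17328 in KO, against 46, 31, 20348 and 14259 in WT. Slc7a3, Slc7a11, Trib3 and Stc2, with means up to 474.5 in KO, add little, so the sum says little about them. Eif2ak3 itself had no call in either set.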

How the data were processed

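Reads were handled with STAR 2.5.3a, RSEM 1.2.31, edgeR 3.16.15 and bcl2fastq 2.20 against GRCm38.p5, per the submitters' processing notes. Settings and strandedness are not given in the sources used. The authors deposited, for each library, normalized counts that hold no decimals, treated here as a score and not as raw counts. The same table deposited by the authors holds their log2 fold change, log2 CPM, likelihood ratio (a score), p-value and FDR per gene. Totals per library ran up to 34858983, with 32024139 as the lowest. They follow normalization and are not depths, so depth is unknown and counting intervals were not computed. Precision rests on 4 libraries per group, which the series' design text describes as 4 mice.

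KO was compared with WT by limma-trend (limma 3.58.1, R 4.3.3) on log2(value + 1) for genes that reached a value of 1 in 4 or more libraries, with an adjusted p threshold of 0.05. This scale understates fold changes of low genes. Ratios within a library were tested by exact permutation, over all libraries and within same-numbered pairs. Coordinates and lengths are from GENCODE M21, and Ero1b and RTRAF were matched through their older symbols (Ero1lb, 2700060E02Rik).

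The 8 genes and all lists were chosen with earlier results of these data known. Named were the 8 genes, per list up to 4 called genes with the largest change, and the 5 profiles closest to Ern1 and to Xbp1, of which 1 is not reported here. Hspa5, Ddrgk1, Atraid, Tbp, Ddx1, Sesn3 and the remaining named targets fall outside that rule and were chosen once their values had been seen.

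The replicate numbers occur in both groups. Libraries of the same number deviated together from their group means, with r across genes of 0.329, 0.585, 0.666 and 0.383, each over 0.1. Libraries of different numbers were not compared in this way. The step between the sets, seen in both groups, could give a positive r without any pairing. These r therefore cannot show whether the numbers pair the libraries, and the labels give no pairing beyond the numbers. To cover the case of pairs, a fit with the replicate number as a block was an alternative. Other alternatives changed the pseudocount (0.1 and 10), the filter, the scaling, the set of libraries, the variance model and each library in turn, 21 in all per gene. Levels per kb of the longest coding transcript, next to merged exons, were added after seeing the data.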

Additional observations from a re-analysis of the deposited data

Results flagged for a closer look

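The ratio of Mbtps2 to Mbtps1 in KO replicate 3 was 0.1204, while the other KO libraries lay at 0.135, 0.134 and 0.136. This library stood far from the rest of its group relative to the group's whole range; the measure was Dixon's gap over range at its 95% critical value. The value was still above the WT range of 0.105 to 0.119. Chance puts about 1 in 20 groups past this criterion, and 24 groups were checked.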

How the results depend on the processing

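Over 21 alternatives the log2 fold change lay between 0.45 and 0.63 for Ern1, between -0.65 and -0.35 for Atf6 and between -0.998 and -0.57 for Atf6b, and each stayed past the threshold, with adjusted p up to 0.0142, 0.0319 and 0.0294. With the replicate block, which treats the numbers as pairs, the limma-trend adjusted p was 0.00435 for Ern1, 0.08004 for Xbp1, 0.0165 for Atf6 and 0.00566 for Atf6b, and the block changed no call among the 8 genes. Within the same pairs the log2 ratio differences of -0.84 for Xbp1 to Ern1, -0.64 for Eif2ak3 to Ern1 and 0.23 for Mbtps2 to Mbtps1 had an exact permutation p of 0.125, adjusted 0.167, where no smaller p was possible. With 1 library left out these differences ranged from -0.94 to -0.73, from -0.71 to -0.55 and from 0.20 to 0.28, with adjusted p of 0.0381 without a KO library and 0.0571 to 0.0762 without a WT library. Xbp1 ranged from -0.48 to -0.13 and was called with the set as a term and in replicates 1 and 2 alone. Rtcb ranged from -0.28 to -0.14 and was called without WT replicate 4 only. Eif2ak3, Mbtps1 and Mbtps2 were never called. The sign of Eif2ak3 turned to 0.024 in replicates 3 and 4 alone, and that of Mbtps1 to 0.021 under quantile normalization. The log2 difference of the ratio of Atf6b to Atf6 turned to 0.081 in replicates 1 and 2 alone and moved to -0.65 in replicates 3 and 4 alone. With the set as a term, 2400 genes were higher and 2102 lower. Leaving out 1 library gave 1121 to 1684 genes higher and 863 to 1599 lower, with 909 lower without KO replicate 4 and 863 without WT replicate 2, and 24 to 39 pathway genes lower, with 24 without KO replicate 1. Of the summary values recomputed, 148 kept their direction and side or moved little, 15 no longer passed, 6 moved by more and 1 reversed. Of the values of single genes and lists, 424 kept theirs, 75 moved, 3 came to pass and 2 reversed. The causes were not tested. Under the scalings the median log2 fold change of all genes lay between -0.032 and 0.043. Without raw counts, depth cannot be set beside the lowest genes named, Creb3l3, Creb3l4 and Slc7a11.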

Other observations

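Genes whose start lies within 500 kb of the start of 1 of the 8 genes were counted as their neighbours, beside the 20.9% called among all tested genes. Of 18 tested neighbours of Ern1 none was called by limma-trend, 1 was higher and 2 were lower at an unadjusted p under 0.05, and 1 was lower in the authors' deposited table. Of 47 neighbours of Atf6b, 2 were higher and 3 were lower, of 21 neighbours of Atf6, 1 was higher and 4 were lower, and of 16 neighbours of Xbp1, 5 were lower. The 3 called neighbours with the largest changes are given, chosen after their values were seen. Gm20481, 322.8 kb from the start of Atf6b, had 285, 404, 219 and 175 in KO replicates 1 to 4, against 0, 3, 11 and 10 in WT replicates 1 to 4. Emid1, 368.4 kb from the start of Xbp1, had 40, 26, 55 and 33 in KO, against 153, 207, 183 and 208 in WT. Pcp4l1, 328.5 kb from the start of Atf6, had 178, 174, 173 and 200 in KO, against 39, 73, 50 and 67 in WT.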
